A study of Rattus norvegicus with 9 samples.

Results

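The collagen gene family was examined in bulk liver RNA-seq of rats with acute-on-chronic liver failure (ACLF). Members were the protein-coding genes whose symbol is Col, a type number, the letter a and a chain number, which gave 42 of the 32883 genes listed and of the 22250 protein-coding genes. They were divided into 10 fibrillar collagens, 6 basement membrane (type IV) collagens and 26 other collagens. The study had 9 livers of male Sprague-Dawley rats, 3 in each of 3 groups. The methods give an age of 8 to 11 weeks for the rats as obtained, and not the age at which the livers were taken. The Normal group was described only as normal rats. The Empty and UTOpiA groups both carried ACLF, made by closing off the common bile duct (bile duct ligation, BDL) 21 days earlier, which gives secondary biliary cirrhosis, and then injecting lipopolysaccharide (LPS, 0.25 mg/kg, intraperitoneal). Both also went through 2 h of heparinised extracorporeal circulation under isoflurane from 1 h after LPS, and their livers were taken 24 h after LPS from rats that were still alive. The Empty group was connected to a circuit with empty columns. In the UTOpiA group the circuit held a column of alginate capsules with human hepatocyte-like cells (iHLC), made from gene-edited induced pluripotent stem cells, and a column of cellulose acetate beads for granulocyte and monocyte apheresis (GMA).

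Collagens are the main proteins of the extracellular matrix, and every molecule is a helix wound from α chains of the same or related genes. Fibrillar collagens (types I, III, V and their relatives) are cut outside the cell and packed into the banded fibrils that make up a liver scar, type IV chains form the sheet-like network of basement membranes, and the remaining types coat fibrils, anchor epithelia, form beaded filaments or short networks, or sit in the plasma membrane. In the normal liver fibrillar collagen is sparse and lies around portal tracts and central veins. After bile duct ligation it is deposited by portal fibroblasts and by hepatic stellate cells that have turned into myofibroblasts.

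The libraries held 14241172 to 17321677 counts. Levels are given below as TPM (transcript abundance scaled by gene length and library size), so that genes can be compared with each other, and differences as log2 fold changes of counts after TMM scaling from edgeR's quasi-likelihood test over 14089 genes, in which a gene was called when its adjusted p was below 0.05 and its fold change above 2. The choice of scale matters here, because the albumin transcript alone took 13.3% to 14.9% of counts in the Normal livers and 1.54% to 3.91% in the ACLF livers. Over 12857 genes with a mean of at least 1 TPM, the median gene was 0.51 higher on the log2 TPM scale than on the TMM scale in Empty against Normal livers, 0.32 higher in UTOpiA against Normal and 0.19 lower in UTOpiA against Empty, and TPM differences are to be read against these shifts. In bulk tissue, fewer cells of a type and less RNA per cell cannot be told apart. The 3 comparisons share livers and are not independent of each other.

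Of the 42 collagen genes, 30 had enough counts to enter the test, namely 8 fibrillar, 5 basement membrane and 17 other collagens. Between Empty and Normal livers, 21 of the 30 were called higher (6 fibrillar, 4 basement membrane and 11 other collagens), where 20.7% of all tested genes were called higher. None was called lower by edgeR, where 11.1% of all tested genes were. DESeq2 called 21 higher and none lower (21.6% and 11.5% of all tested genes), and 22 of the 30 had an unadjusted edgeR p below 0.05 (55.5%), all of them with higher values in Empty livers. The median log2 fold change of the 30 was 2.38, against 0.04 over all tested genes. Between UTOpiA and Normal livers 17 were called higher (5, 2 and 10 in the same order) against a background of 18.2%, and 1, Col20a1, was called lower against 6.81%. DESeq2 called 20 higher and 1 lower there (19.4% and 7.46% of all tested genes), and 23 of the 30 had an unadjusted edgeR p below 0.05 (49.1%). Taken liver by liver, every Empty liver was above every Normal liver in 23 of the 30 genes in TPM (53.4% of all tested genes) and in 20 on the TMM scale (32.4%), and below them in none (12.8% and 28.8%). Every UTOpiA liver was above the Normal livers in 21 in TPM (39%) and in 21 on the TMM scale (30.8%), and below them in 2 (13.4%) and 4 (26.1%). Because a gene could enter the test through the ACLF livers alone, these counts describe the genes that passed the filter and not the whole family. The log2 fold changes with their intervals are drawn for each gene and comparison.

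**Figure D1:**
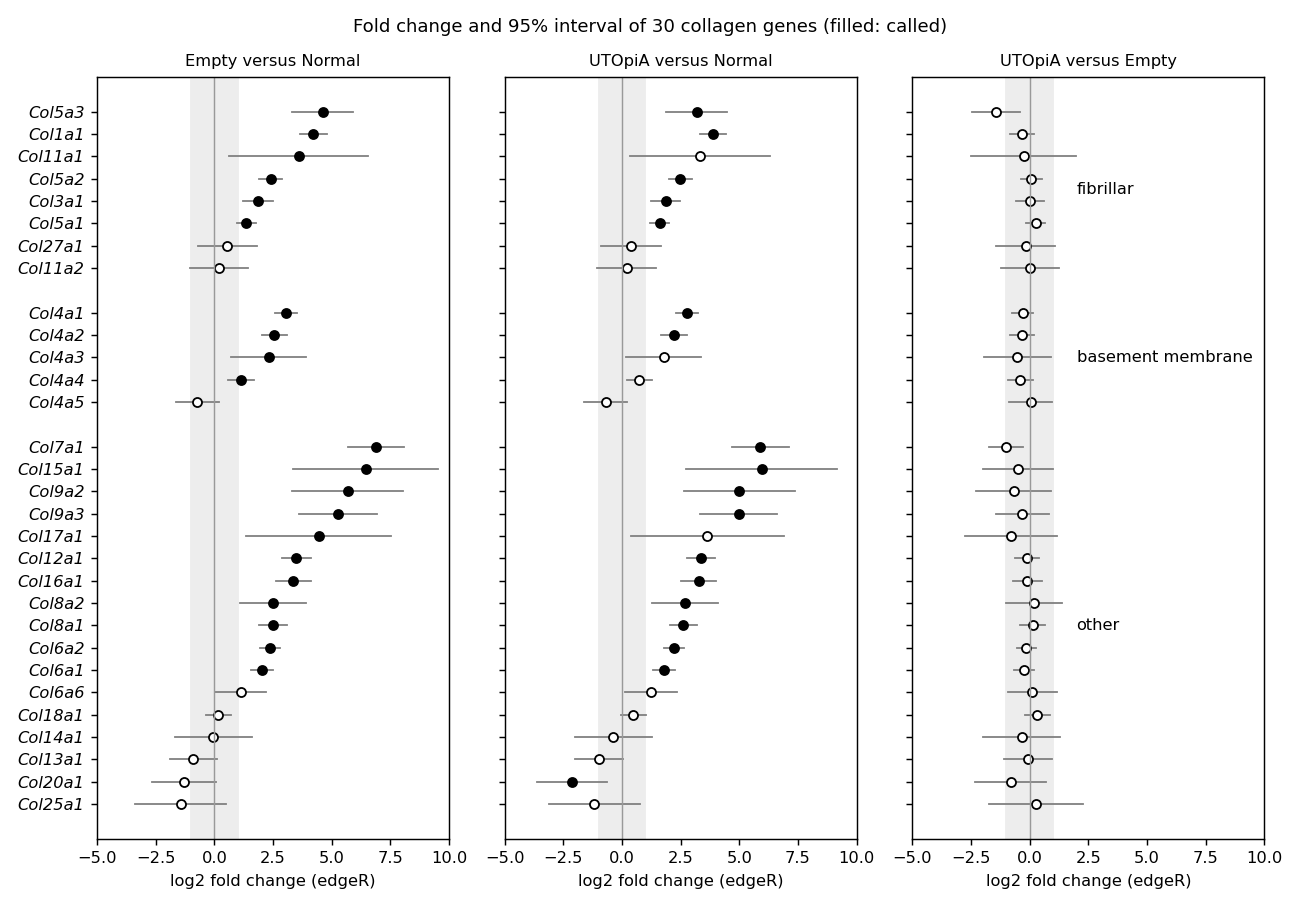
Log2 fold change (horizontal axis, edgeR) with its 95% interval for the 30 collagen genes that entered the test, grouped into fibrillar, basement membrane and other collagens, in Empty versus Normal, UTOpiA versus Normal and UTOpiA versus Empty livers (3 livers per group). Filled points are called genes and the grey band marks fold changes of at most 2: 21 filled points lie to the right in the first panel, 17 to the right and 1 to the left in the second, and none in the third.

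In the Normal liver the collagen transcript pool was dominated by a pair of genes. Col18a1, which encodes the heparan sulfate-bearing type XVIII collagen of basement membranes that is known to be made by hepatocytes and from which endostatin is cut, stood at 188 ± 19.6 TPM (SD, n = 3), and Col3a1, the type III fibrillar chain, at 85.7 ± 3.94 TPM. The next in order were Col14a1 at 13.5 ± 2.41, Col4a1 at 12.4 ± 1.43, Col4a2 at 11.2 ± 1.35 and Col6a1 at 11 ± 1.78 TPM, whose spreads between livers overlapped. Col1a1, the major chain of type I collagen, came only at rank 12 with 2.59 ± 0.663 TPM. In the Empty livers Col3a1 took the first rank at 443 ± 159 TPM, Col18a1 the second at 299.7 ± 35.4, Col4a1 the third at 147 ± 23.5, Col4a2 the fourth at 95 ± 7.69 and Col1a1 the fifth at 68.3 ± 12.4 TPM. The ranges of Col3a1 and Col18a1 in the Empty livers did not overlap, with 356, 627 and 348 against 310.4, 328 and 260.1 TPM in the same order of livers.

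The summed level of the 42 collagen genes was 385, 362 and 342 TPM in the Normal livers, 1175, 1558 and 1165 TPM in the Empty livers and 1147, 1406 and 891 TPM in the UTOpiA livers. All 6 ACLF livers were above all Normal livers, by 3.58 times in the Empty and 3.16 times in the UTOpiA group on the means. On the TMM scale (CPM, counts scaled by library size), the same sums were 1342, 1234 and 1202 in Normal, 3054, 3861 and 2673 in Empty and 3121, 3289.8 and 3111 in UTOpiA livers, which gave ratios of 2.54 and 2.52. UTOpiA 3, the lowest ACLF liver in TPM, was level with the other UTOpiA livers on the TMM scale. Without Col18a1 the TPM sum was 175 ± 12.7 in Normal, 999.8 ± 200.1 in Empty and 823 ± 252 in UTOpiA livers (SD, n = 3). Of the rise in the mean pool from Normal to Empty, Col3a1 made up 38.2%, Col4a1 14.4%, Col18a1 11.9%, Col4a2 8.94% and Col1a1 7.02% in TPM. These parts depend on the scale. On the TMM scale they were 38.6% for Col3a1, 21.3% for Col4a1, 9.77% for Col4a2 and 9.52% for Col1a1 in Empty livers. The part of Col18a1 was 11.9% in TPM and 4.02% on the TMM scale in Empty livers, and 17.5% and 13.8% in UTOpiA livers.

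The make-up of the pool also shifted. Fibrillar collagens held 26.7, 28.3 and 27.6% of the summed TPM in the Normal livers, 40.7, 49.8 and 39% in the Empty livers and 44.7, 44.5 and 40.6% in the UTOpiA livers. The basement membrane share was 8.69, 10.4 and 9.39% in Normal, 19.1, 16.5 and 24.5% in Empty and 13.1, 19.9 and 14.4% in UTOpiA livers. Both shares were higher in every ACLF liver than in any Normal liver, while the share of Col18a1 alone went from between 48.1% and 54.6% in Normal to between 21.1% and 34.2% in ACLF livers. These shares are a description of the livers and carry no test.

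**Figure D2:**
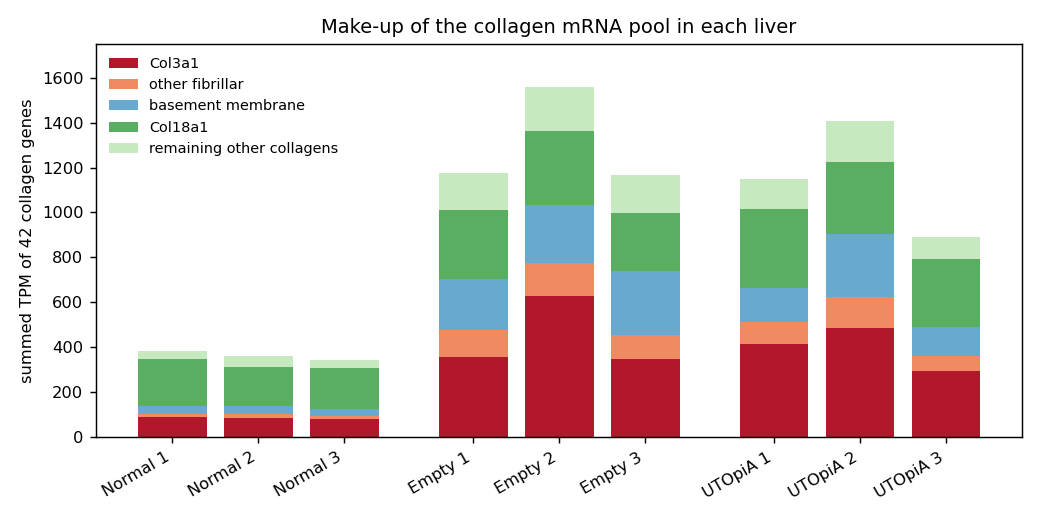
Stacked bars of the summed TPM of the 42 collagen genes (vertical axis, from 0) in each of the 9 livers, split into Col3a1, the other fibrillar collagens, basement membrane collagens, Col18a1 and the remaining other collagens. The Normal bars end between 342 and 385 TPM with Col18a1 as the largest block, and the ACLF bars end between 891 and 1558 TPM with Col3a1 as the largest or, in UTOpiA 3, the second largest block.

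Among the fibrillar collagens, the genes of the scar fibril were all higher in ACLF liver, and their sizes of change were unequal. Col3a1 (chr9:52023295-52059217 in the deposited positions, build rn6 per the labels), whose chain forms thin, reticular fibrils, was at 88.9, 86.8 and 81.3 TPM in the Normal livers, 356, 627 and 348 TPM in the Empty livers and 413, 483 and 292 TPM in the UTOpiA livers. Empty 2 was the highest liver, and no ACLF liver reached down to the Normal range. Its log2 fold change was 1.86 ± 0.28 (SE, edgeR adjusted p = 0.000757) in Empty and 1.87 ± 0.28 (SE, edgeR adjusted p = 0.00109) in UTOpiA against Normal livers. Col1a1 (chr10:82745801-82762789), encoding the α1 chain of type I collagen, the main fibril of scar, was at 1.97, 3.29 and 2.51 TPM in the Normal livers, 66.4, 81.6 and 57 TPM in the Empty livers and 46.4, 65.1 and 34.7 TPM in the UTOpiA livers. The groups of ACLF and Normal livers were far apart, with Empty 2 again highest and UTOpiA 3 the lowest ACLF liver. The log2 fold change of Col1a1 was 4.21 ± 0.26 (SE, edgeR adjusted p = 2.95e-05) in Empty and 3.88 ± 0.25 (SE, edgeR adjusted p = 6.22e-05) in UTOpiA livers. Its 95% interval in Empty livers (3.64 to 4.78) lay wholly above that of Col3a1 (1.23 to 2.48).

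The type V chains, which join type I fibrils and set their width, rose as well. Col5a1 was at 3.76, 5.39 and 4.19 TPM in the Normal livers, 16.6, 17.2 and 14.7 TPM in the Empty livers and 16.3, 23.9 and 12 TPM in the UTOpiA livers. Col5a2 was at 4.54, 4.01 and 4.79 TPM in the Normal livers, 34.2, 38.3 and 27.9 TPM in the Empty livers and 30.5, 46.1 and 19.9 TPM in the UTOpiA livers. For both genes the ACLF livers lay wholly above the Normal livers, and UTOpiA 2 was the highest of all. Col5a1 rose by 1.35 ± 0.18 (SE, edgeR adjusted p = 0.000455) and Col5a2 by 2.40 ± 0.22 (SE, edgeR adjusted p = 8.1e-05) on the log2 scale in Empty livers, and by 1.61 ± 0.18 (SE, edgeR adjusted p = 0.000323) and 2.48 ± 0.22 (SE, edgeR adjusted p = 0.000103) in UTOpiA livers. Col5a3, the third and least common type V chain, was scarcer, at 0.0413, 0.0777 and 0.0575 TPM in the Normal livers, 2.47, 1.04 and 2.9 TPM in the Empty livers and 0.61, 1.25 and 0.323 TPM in the UTOpiA livers. It was almost absent from the Normal livers, with 2, 4 and 3 counts, and its log2 fold change was 4.61 ± 0.58 (SE, edgeR adjusted p = 0.000334) in Empty and 3.18 ± 0.59 (SE, edgeR adjusted p = 0.00288) in UTOpiA livers.

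The remaining fibrillar genes are known mostly from cartilage and bone. Col27a1 was at 3.5, 2.32 and 1.31 TPM in the Normal livers, 2.27, 9.07 and 3.59 TPM in the Empty livers and 5.0, 5.43 and 1.71 TPM in the UTOpiA livers, and its groups overlapped, with log2 fold changes of 0.55 ± 0.56 (SE, edgeR adjusted p = 0.443) and 0.38 ± 0.56 (SE, edgeR adjusted p = 0.619) against Normal livers. Col11a1 was called in Empty livers with a log2 fold change of 3.58 ± 1.31 (SE, edgeR adjusted p = 0.0475), but its counts of 5, 88 and 7 in those livers came almost wholly from Empty 2. Without Empty 2 it was 1.05 (adjusted p = 0.35) by edgeR, and the call was also lost without any 1 of the Normal livers. In UTOpiA livers it was not called (edgeR adjusted p = 0.0738), but it was with only the 6 libraries compared, at 3.32 (adjusted p = 0.00734) by edgeR, and by DESeq2 on leaving out any of Normal 1, Normal 3, UTOpiA 2 and UTOpiA 3. Col11a2 stayed between 5 and 18 counts in every liver and was not called. Col24a1 and Col2a1, the chain of the main cartilage collagen, did not enter the test, with 41 and 1 counts over all 9 livers.

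Col1a2, the α2 chain of type I collagen, and Col6a3, the third chain of type VI collagen, are not among the 42 because the deposited tables list them under other symbols, and they were found by their Entrez gene numbers. Col1a2 was at 3.85, 5.18 and 3.19 TPM in the Normal livers, 49, 42.1 and 35.5 TPM in the Empty livers and 43.9, 43.1 and 18.3 TPM in the UTOpiA livers, and its log2 fold change was 2.87 ± 0.29 (SE, edgeR adjusted p = 0.000125) in Empty livers. A second row of the tables carries the same symbol, so reads that map to both copies may be missing from this value.

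**Figure D3:**
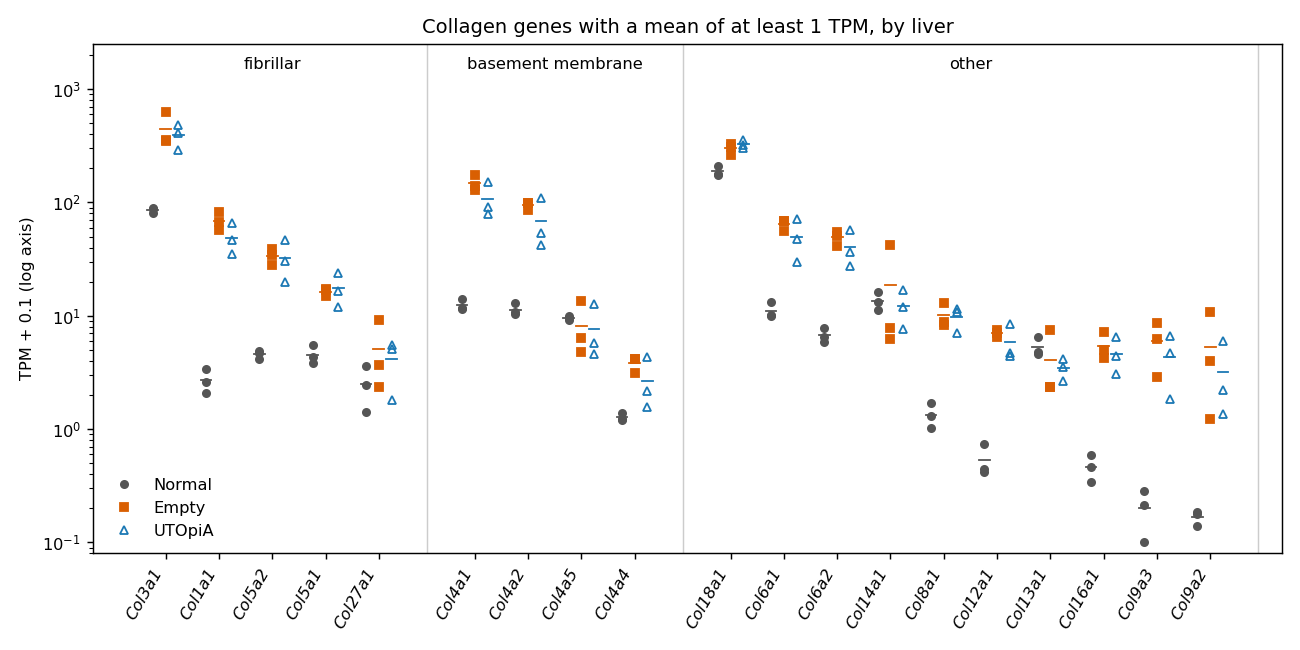
TPM + 0.1 (vertical log axis) of the 19 collagen genes with a mean of at least 1 TPM over the 9 livers, each symbol 1 liver and each short line the group mean (n = 3). Fibrillar, basement membrane and other collagens are ordered by mean level from left to right. Normal livers lie below all ACLF livers for 15 of the 19 genes (35.1% of all tested genes with such a mean), and overlap them for Col27a1, Col4a5, Col14a1 and Col13a1. On the TMM scale the count is 14 (24.8%), without Col18a1.

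Type IV collagen genes lie in head-to-head pairs, and the members of a pair are read in opposite directions from a shared interval. In the RefSeq annotation of GRCr8, another rat build than that of the deposited tables, 76 bases separate the start sites of Col4a1 and Col4a2, 412 those of Col4a3 and Col4a4, and 1414 those of Col4a5 and Col4a6. The whole Col4a1 and Col4a2 interval and the 100 bases before the starts of Col4a3, Col4a4 and Col4a5 are given because the type IV genes are described as pairs in what follows, and capitals mark a GC box (GGGCGG on either strand) or the SMAD-binding motif CAGAC (either strand).
Col4a2 and Col4a1, interval between the starts, chr16:84885521-84885596, plus strand: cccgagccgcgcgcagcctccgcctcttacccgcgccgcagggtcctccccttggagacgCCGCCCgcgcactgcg
Col4a3, chr9:91323890-91323989, plus strand: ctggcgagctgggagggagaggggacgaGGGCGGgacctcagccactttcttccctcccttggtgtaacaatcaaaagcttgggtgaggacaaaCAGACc
Col4a4, chr9:91323578-91323677, minus strand: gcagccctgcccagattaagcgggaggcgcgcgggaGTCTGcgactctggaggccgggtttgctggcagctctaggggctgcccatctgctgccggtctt
Col4a5, chrX:109907259-109907358, plus strand: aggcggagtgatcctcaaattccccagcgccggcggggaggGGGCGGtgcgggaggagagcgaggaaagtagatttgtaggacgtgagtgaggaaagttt
A match is a run of letters and says nothing of binding. Within the 250 bases before the start, GGGCGG stood in 19 of the 33 collagen genes that had a promoter window in RefSeq and in 30.5% of all 33469 windows, beside a median GC content of 59.1% for the collagen genes and 51.2% for all windows. CCAAT stood in 10 of the 33 (34.0% of all windows), TATAAA in 3 (12.9%) and CAGAC in 11 (42.9%). These motifs can overlap each other. Of the genes with a window, GGGCGG was present in 10 of the 16 that were called higher in Empty livers and in 6 of the 7 that were tested and not called, CCAAT in 5 and 1, TATAAA in 1 and 1, and CAGAC in 7 and 1 of them.

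Col4a1 and Col4a2, whose chains form the ubiquitous basement membrane network of vessels, sinusoids and ducts, rose together. Col4a1 was at 11.7, 14 and 11.4 TPM in the Normal livers, 129.5, 138 and 174 TPM in the Empty livers and 90.3, 151 and 79.3 TPM in the UTOpiA livers. Col4a2 was at 10.7, 12.8 and 10.3 TPM in the Normal livers, 86.1, 99.2 and 99.7 TPM in the Empty livers and 53.3, 110.2 and 41.9 TPM in the UTOpiA livers. For both, every ACLF liver exceeded every Normal liver, and UTOpiA 1 and UTOpiA 3 were the lowest ACLF livers. Col4a1 changed by 3.05 ± 0.21 (SE, edgeR adjusted p = 4.36e-05) and Col4a2 by 2.56 ± 0.24 (SE, edgeR adjusted p = 0.000104) on the log2 scale in Empty livers, and by 2.75 ± 0.21 (SE, edgeR adjusted p = 7.02e-05) and 2.22 ± 0.24 (SE, edgeR adjusted p = 0.000269) in UTOpiA livers.

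The chains of the specialised type IV networks, known best from the glomerulus, were less abundant. Col4a4 was at 1.1, 1.13 and 1.3 TPM in the Normal livers, 3.02, 4.04 and 4.08 TPM in the Empty livers and 2.08, 4.2 and 1.47 TPM in the UTOpiA livers, with a log2 fold change of 1.13 ± 0.25 (SE, edgeR adjusted p = 0.00465) in Empty livers and 0.74 ± 0.25 (SE, edgeR adjusted p = 0.0376) in UTOpiA livers. The second of these passed the adjusted p but not the fold threshold. Col4a3, its partner across the shared interval, had 9, 11 and 4 counts in the Normal, 45, 81 and 69 in the Empty and 28, 89 and 7 in the UTOpiA livers. It rose by 2.30 ± 0.71 (SE, edgeR adjusted p = 0.0234) in Empty livers and was not called by edgeR in UTOpiA livers (adjusted p = 0.0728), where UTOpiA 3 fell within the Normal range, but was called by DESeq2 (1.79, adjusted p = 0.0361). Without UTOpiA 3 it was called there as well, at 2.23 (adjusted p = 0.0142) by edgeR. The call in Empty livers was in turn lost by edgeR on leaving out any of Normal 1, Normal 3, Empty 2 and Empty 3.

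Col4a5 was the tested type IV gene that was called in neither comparison with Normal livers. It was at 9.86, 9.37 and 9.05 TPM in the Normal livers, 4.71, 13.3 and 6.26 TPM in the Empty livers and 4.48, 12.5 and 5.63 TPM in the UTOpiA livers. The Normal livers lay close together, while in each ACLF group replicate 2 was above and the other livers below them in TPM. On the TMM scale Empty 2 (42.6 CPM) was within the Normal range of 41.4 to 44.7 CPM and UTOpiA 2 (37.9 CPM) below it, so that all UTOpiA livers were below the Normal livers. Its log2 fold change was -0.74 (95% interval -1.65 to 0.17, edgeR adjusted p = 0.159) in Empty and -0.69 (95% interval -1.61 to 0.22, edgeR adjusted p = 0.203) in UTOpiA livers. DESeq2 called it lower in UTOpiA livers when UTOpiA 2 was left out, at -1.07 (adjusted p = 0.0404). In the edgeR fit of all livers its interval lay wholly below those of Col4a1 and Col4a2 in both comparisons. Col4a6 did not enter the test, and 31 of its 45 counts were in Empty 2.

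Of the other collagens, the type VI chains form beaded microfilaments that link cells and fibrils. Col6a1 was at 9.89, 13.1 and 10.1 TPM in the Normal livers, 68.9, 56 and 68.6 TPM in the Empty livers and 47.8, 71.3 and 29.4 TPM in the UTOpiA livers. Col6a2 was at 6.39, 7.73 and 5.81 TPM in the Normal livers, 55.1, 41.5 and 50.5 TPM in the Empty livers and 36.2, 56.5 and 27.4 TPM in the UTOpiA livers. Every ACLF liver exceeded every Normal liver for both genes, and UTOpiA 3 was the lowest of the 6. In Empty livers Col6a1 rose by 2.03 ± 0.21 (SE, edgeR adjusted p = 0.000126) and Col6a2 by 2.37 ± 0.19 (SE, edgeR adjusted p = 6.12e-05), and in UTOpiA livers by 1.79 ± 0.20 (SE, edgeR adjusted p = 0.000323) and 2.23 ± 0.19 (SE, edgeR adjusted p = 0.000103). Col6a3, outside the 42, was at 1.71, 2.08 and 1.71 TPM in the Normal livers, 14, 20.1 and 15.2 TPM in the Empty livers and 14.8, 24 and 12.4 TPM in the UTOpiA livers and rose by 2.65 ± 0.20 (SE, edgeR adjusted p = 5.08e-05) in Empty livers. Of the later type VI chains, which lie next to each other on chromosome 8, Col6a6 had 6 to 71 counts and was not called by edgeR, with 1.11 ± 0.49 (SE, edgeR adjusted p = 0.0881) in Empty and 1.23 ± 0.49 (SE, edgeR adjusted p = 0.0743) in UTOpiA livers. DESeq2 called it in both with adjusted p of 0.049 and 0.0369, and without Normal 1 edgeR called it too, at 1.73 (adjusted p = 0.026) and 1.85 (adjusted p = 0.027). Col6a4 and Col6a5 held 7 and 31 counts in all.

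The fibril-associated collagens (FACIT), which decorate the surface of fibrils, went in different ways. Col12a1, found in dense connective tissue, was at 0.342, 0.633 and 0.318 TPM in the Normal livers, 6.46, 7.01 and 7.42 TPM in the Empty livers and 4.57, 8.28 and 4.32 TPM in the UTOpiA livers. Col16a1 was at 0.238, 0.359 and 0.487 TPM in the Normal livers, 4.88, 7.04 and 4.14 TPM in the Empty livers and 4.27, 6.39 and 2.94 TPM in the UTOpiA livers. Neither gene had an ACLF liver within the Normal range, and their changes in Empty livers were 3.49 ± 0.27 (SE, edgeR adjusted p = 5.47e-05) and 3.36 ± 0.33 (SE, edgeR adjusted p = 0.000114). Col14a1 (undulin), the most abundant of the class in Normal liver, was at 13.2, 16 and 11.3 TPM in the Normal livers, 7.73, 41.6 and 6.08 TPM in the Empty livers and 12, 7.47 and 16.8 TPM in the UTOpiA livers. It was not called, with -0.05 (95% interval -1.68 to 1.58, edgeR adjusted p = 0.962) in Empty and -0.38 (95% interval -2.02 to 1.26, edgeR adjusted p = 0.702) in UTOpiA livers. Col20a1, with 3 to 18 counts in a liver, was lower in UTOpiA than in Normal livers, at -2.13 ± 0.66 (SE, edgeR adjusted p = 0.0292). Its counts were 18, 17 and 6 in Normal, 10, 5 and 12 in Empty and 3, 3 and 6 in UTOpiA livers. That call was lost in 8 of the 12 fits of edgeR or DESeq2 that left out 1 liver.

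The type IX genes, which in cartilage sit on type II fibrils, stood out by their size of change. Col9a3 was at 0.184, 0.115 and 0 TPM in the Normal livers, 2.75, 6.12 and 8.6 TPM in the Empty livers and 4.55, 6.48 and 1.76 TPM in the UTOpiA livers. Col9a2 was at 0.0846, 0.0398 and 0.0786 TPM in the Normal livers, 1.12, 10.7 and 3.89 TPM in the Empty livers and 2.09, 5.87 and 1.25 TPM in the UTOpiA livers. The Normal livers held at most 3 counts of either gene, and all ACLF livers were above them, over a range of nearly an order of magnitude for Col9a2. From summed counts scaled by the TMM library sizes, Empty livers exceeded Normal livers 41.2-fold (95% counting interval 17.5 to 128) for Col9a3 and 52.8-fold (95% counting interval 22.5 to 163) for Col9a2, and UTOpiA livers 34.6-fold (95% counting interval 14.6 to 108) and 36.5-fold (95% counting interval 15.4 to 114). The edgeR adjusted p was 0.000539 and 0.00229 in Empty livers, and 0.00106 and 0.00582 in UTOpiA livers. Empty 2 held 290 of the 431 Empty counts of Col9a2. On leaving out 1 liver, the edgeR log2 fold change of Col9a2 in Empty livers ran from 4.55 to 6.13, against 5.67 with all livers. The call was kept. Col9a1, the third type IX chain, had no count in the Normal livers, 7, 8 and 3 in the Empty and 0, 6 and 3 in the UTOpiA livers, and did not enter the test. The cartilage genes Acan and Matn1 and the type II collagen gene gave no such signal, with Acan and Matn1 at 0 in all 9 livers. Sox5, another chondrocyte marker, was present in every liver and was called lower in Empty livers (-1.36, edgeR adjusted p = 0.00188). Col11a1 was called higher in Empty livers, with counts almost wholly from Empty 2.

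The short-chain network collagens of type VIII, known from vessel walls and from Descemet's membrane of the eye, rose. Col8a1 was at 0.923, 1.6 and 1.21 TPM in the Normal livers, 8.75, 12.9 and 8.22 TPM in the Empty livers and 11.3, 10.7 and 6.94 TPM in the UTOpiA livers. Col8a2 was at 0.0893, 0.308 and 0.0553 TPM in the Normal livers, 0.526, 1.55 and 1.7 TPM in the Empty livers and 1.13, 1.65 and 0.957 TPM in the UTOpiA livers. No ACLF liver overlapped the Normal livers for either gene. Their log2 fold changes were 2.49 ± 0.26 (SE, edgeR adjusted p = 0.000146) and 2.50 ± 0.62 (SE, edgeR adjusted p = 0.00883) in Empty livers, and 2.61 ± 0.26 (SE, edgeR adjusted p = 0.000193) and 2.68 ± 0.62 (SE, edgeR adjusted p = 0.00849) in UTOpiA livers. Col8a2 had 3, 11 and 2 counts in the Normal livers. On leaving out 1 liver, its edgeR value in Empty livers ran from 2.10 to 3.52, and the call was kept. The related Col10a1 of hypertrophic cartilage had 17 counts in all.

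Col7a1, which forms the anchoring fibrils beneath squamous epithelia, had the highest ratio of summed counts among the collagen genes with 1 or more counts in Normal livers. That ratio rests on 2 Normal counts and its interval overlaps those of Col9a2, Col9a3, Col11a1 and Col17a1. It had 1, 1 and 0 counts in the Normal, 172, 113 and 155 in the Empty and 57, 93 and 38 in the UTOpiA livers, or at most 0.0136 TPM in Normal and 0.45 to 1.88 TPM in ACLF livers. From summed counts the ratio to Normal was 135-fold (95% counting interval 37.1 to 1117) in Empty and 69.8-fold (95% counting interval 19.1 to 581) in UTOpiA livers (edgeR adjusted p = 5.47e-05 and 0.000127). The 100 bases before the starts of Col7a1 and Col18a1 are set side by side as those of a gene nearly absent from Normal livers that was called in both ACLF groups and of an abundant one that was not called, with GC boxes in capitals (RefSeq, GRCr8).
Col7a1, chr8:118483264-118483363, plus strand: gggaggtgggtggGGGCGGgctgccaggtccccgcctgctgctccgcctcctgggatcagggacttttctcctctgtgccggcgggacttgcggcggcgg
Col18a1, chr20:11473545-11473644, plus strand: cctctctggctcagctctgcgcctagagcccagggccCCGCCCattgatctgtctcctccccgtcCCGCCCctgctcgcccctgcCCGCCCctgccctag
Both hold the GC box, 1 time and 3 times in these letters. Col18a1 was at 210.3, 174 and 179.6 TPM in the Normal livers, 310.4, 328 and 260.1 TPM in the Empty livers and 353, 318 and 305 TPM in the UTOpiA livers. On the TPM scale every ACLF liver was above every Normal liver, but on the TMM scale the Empty and Normal livers overlapped, and the log2 fold change was 0.16 (95% interval -0.37 to 0.69, edgeR adjusted p = 0.597) in Empty and 0.49 (95% interval -0.04 to 1.02, edgeR adjusted p = 0.128) in UTOpiA livers. Col15a1, the related multiplexin known as a marker of portal fibroblasts in BDL rats, had no count in any Normal liver, 9, 11 and 20 in the Empty and 3, 15 and 6 in the UTOpiA livers. Set against a floor of 3 counts over the 3 Normal libraries together, it was at least 8.17-fold higher in Empty and at least 5.94-fold higher in UTOpiA livers (edgeR adjusted p = 0.00569 and 0.0125).

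Of the transmembrane collagens, Col17a1 rose in Empty livers and Col13a1 and Col25a1 were not called. Col13a1, which is found at cell-matrix contacts, was at 4.7, 6.46 and 4.49 TPM in the Normal livers, 2.26, 7.43 and 2.24 TPM in the Empty livers and 4.07, 3.42 and 2.53 TPM in the UTOpiA livers. In TPM the UTOpiA livers lay below the Normal livers and the Empty livers on both sides of them. On the TMM scale Empty 2 (9.76 CPM) was within the Normal range of 8.45 to 11.8 CPM, and all other ACLF livers were below it. Neither comparison was called, with -0.90 (95% interval -1.91 to 0.11, edgeR adjusted p = 0.126) in Empty and -0.97 (95% interval -1.99 to 0.05, edgeR adjusted p = 0.118) in UTOpiA livers. Col25a1 had 16, 10 and 17, 2, 21 and 2 and 12, 11 and 3 counts in Normal, Empty and UTOpiA livers and was not called. Col17a1, the hemidesmosome collagen of stratified epithelium, had 0, 1 and 0 counts in Normal, 12, 13 and 20 in Empty and 4, 19 and 0 in UTOpiA livers. It was called in Empty livers, at 27.6-fold (95% counting interval 4.7 to 1113) from summed counts (edgeR adjusted p = 0.024), and not in UTOpiA livers (edgeR adjusted p = 0.0733), and the difference between these 2 results was not called either (edgeR adjusted p = 0.782). The call in Empty livers was lost by edgeR on leaving out Empty 3 or any Normal liver. In UTOpiA livers DESeq2 called it (adjusted p = 0.0438), and so did edgeR without UTOpiA 3, at 4.15 (adjusted p = 0.0194). In all, 12 collagen genes did not enter the test. Their counts over the 9 livers ran from 0 for Col19a1 to 74 for Col22a1, and none had a mean above 0.191 TPM.

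Chains of the same or of co-distributed collagens changed in unequal proportion. The ratio of Col1a1 to Col1a2, in TPM, was 0.512, 0.636 and 0.787 in the Normal livers, 1.36, 1.94 and 1.6 in the Empty livers and 1.06, 1.51 and 1.9 in the UTOpiA livers. All ACLF livers were above 1 and all Normal livers below it. Because reads of Col1a2 may be missing from its row, the position of this ratio against 1 is uncertain. The ratio of Col3a1 to Col1a1 was 45.1, 26.4 and 32.4 in the Normal livers, 5.36, 7.68 and 6.1 in the Empty and 8.9, 7.42 and 8.41 in the UTOpiA livers. The ratio of Col5a2 to Col5a1 was 1.21, 0.745 and 1.14 in Normal, 2.06, 2.23 and 1.9 in Empty and 1.86, 1.92 and 1.67 in UTOpiA livers. Here too the ACLF livers did not overlap the Normal livers.

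Of the type IV pairs described above, Col4a1 to Col4a2 stood at 1.09, 1.1 and 1.11 in the Normal livers, with an SD of 0.0105, at 1.5, 1.4 and 1.75 in the Empty and at 1.7, 1.37 and 1.89 in the UTOpiA livers. Col4a3 to Col4a4 stood at 0.154, 0.172 and 0.0537 in Normal, 0.224, 0.326 and 0.27 in Empty and 0.24, 0.345 and 0.0775 in UTOpiA livers. For that pair only the Empty livers were clear of the Normal ones, and Col4a3 had as few as 4 counts in a liver. The ratio of Col6a1 to Col6a2 was 1.55, 1.69 and 1.73, 1.25, 1.35 and 1.36 and 1.32, 1.26 and 1.07 in the same order of groups. It was lower in each ACLF liver than in any Normal liver. Col6a3 to Col6a2 was 0.267, 0.268 and 0.294 in Normal, 0.254, 0.486 and 0.30 in Empty and 0.41, 0.424 and 0.452 in UTOpiA livers, and only the UTOpiA livers were clear of the Normal ones. A ratio of transcripts compares chains within a liver, free of the scaling between livers, and is not a ratio of proteins.

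**Figure D4:**
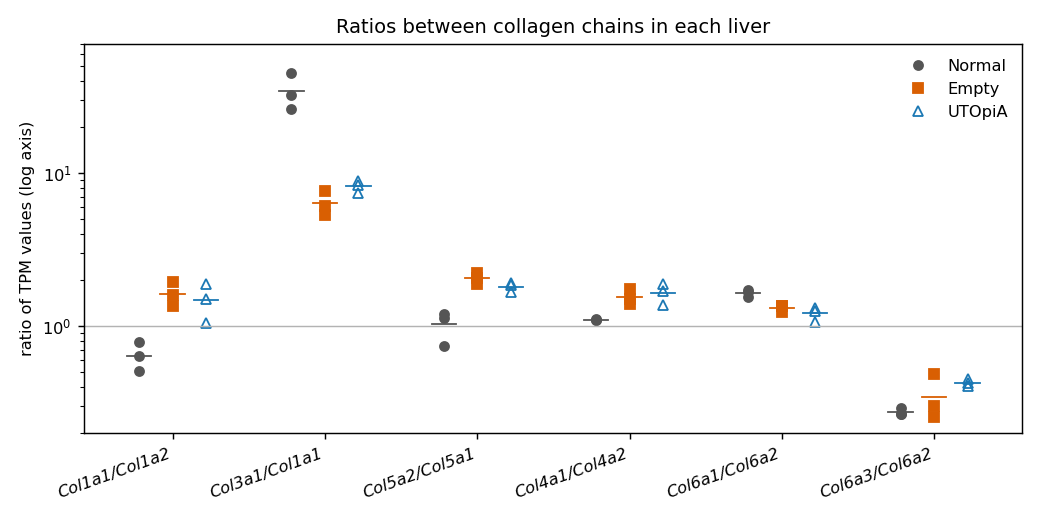
Ratio of the TPM values of chain pairs (vertical log axis) in each of the 9 livers, with symbols for the groups and short lines for their means (n = 3). Col1a1/Col1a2 lies at 0.512 to 0.787 in Normal and at 1.06 to 1.94 in ACLF livers, and Col3a1/Col1a1 at 26.4 to 45.1 in Normal and at 5.36 to 8.9 in ACLF livers.

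Empty 2 differed from the other Empty livers in several collagen genes. Among the 6 ACLF livers it was the highest in 12 of the 30 tested collagen genes on the TPM scale and in 12 on the TMM scale, where it was the highest in 21.8% and 19.9% of all tested genes. For Col14a1 it stood at 41.6 TPM against 7.73 and 6.08 TPM in Empty 1 and Empty 3. For Col25a1 it stood at 1.37 TPM against 0.121 and 0.128 TPM. With Empty 2 left out, 4 of 31 tested collagen genes were called lower in Empty than in Normal livers by edgeR. The share over all tested genes was 12.3%, so that this count is near the background. Their log2 fold changes were then -1.48 (adjusted p = 0.03) for Col14a1, -1.74 (adjusted p = 0.000905) for Col13a1, -3.49 (adjusted p = 0.00549) for Col25a1 and -1.33 (adjusted p = 0.00724) for Col4a5, and DESeq2 called the same 4. Markers of the cells in this liver went in different ways. Their ranks are in TPM among the 3 Empty livers, have no share over all tested genes beside them and carry no test. Among the Empty livers Empty 2 was the highest in all 5 endothelial, 3 of 3 smooth muscle, 3 of 3 proliferation, 4 of 6 hepatocyte and 4 of 6 cholangiocyte markers. It was also the highest in 3 of 6 portal fibroblast, 3 of 5 myofibroblast, 2 of 5 stellate cell and 1 of 5 macrophage markers, and in none of the T cell, B cell and neutrophil markers. It was the lowest in 3 of 4 neutrophil, 3 of 3 B cell, 2 of 4 T cell, 3 of 5 macrophage, 2 of 5 stellate cell, 2 of 5 myofibroblast, 2 of 6 hepatocyte, 1 of 6 cholangiocyte and 1 of 6 portal fibroblast markers. The Kupffer cell gene Clec4f was at 122, 115 and 113 TPM in the Normal livers, 32.7, 228 and 14.3 TPM in the Empty livers and 136, 23.1 and 88.6 TPM in the UTOpiA livers, the sinusoidal endothelial gene Stab2 at 1.73, 14.2 and 1.8 TPM in the Empty livers and the stellate cell gene Lrat at 7.9, 14.5 and 3.11 TPM there, while the macrophage gene Csf1r was at 120.0, 64.1 and 93.4 TPM and the stellate cell gene Des at 42.8, 12.2 and 26.2 TPM. Their part in the collagen values of this liver was not tested.

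**Figure D5:**
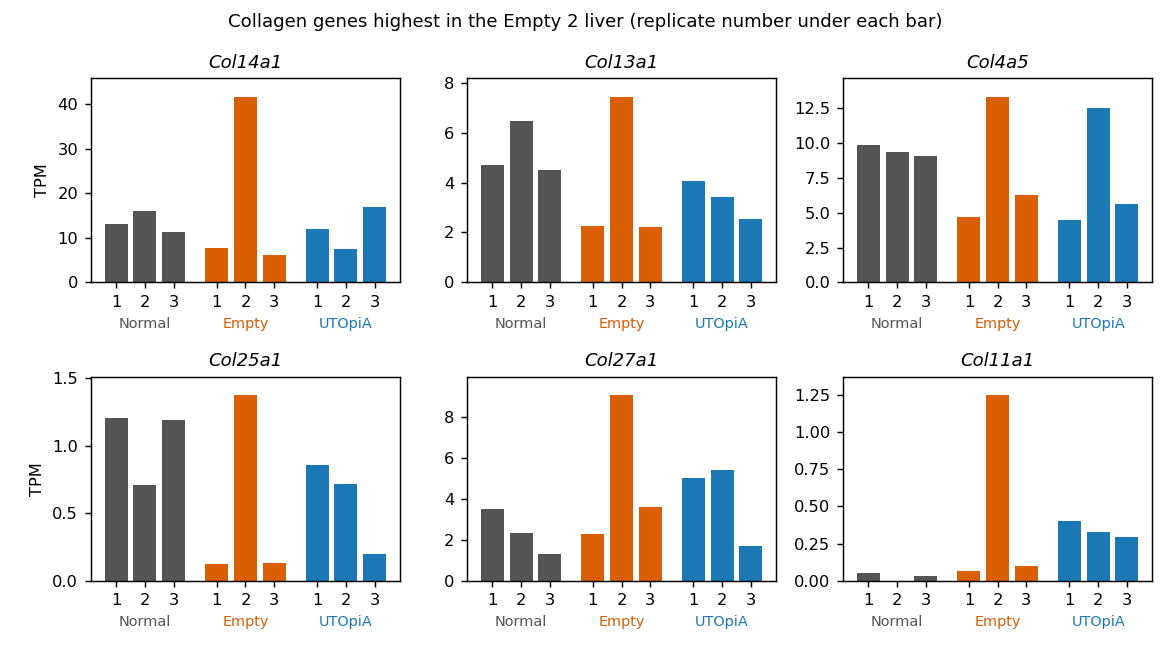
TPM (vertical axis, from 0) of 6 collagen genes in each of the 9 livers, 1 bar per liver, chosen after their values were seen because Empty 2 holds the highest bar. On the TMM scale a Normal liver was the highest for Col13a1, Col25a1 and Col4a5. Col14a1 reaches 41.6 TPM in Empty 2 and at most 16.8 TPM in any other liver, and Col25a1, Col13a1 and Col4a5 lie in the Normal range or above it in Empty 2 and below it in Empty 1 and Empty 3.

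Between UTOpiA and Empty livers no collagen gene was called by edgeR in either direction, where 0% of all tested genes were called. No gene had every UTOpiA liver above the Empty livers (2.43% of all tested genes in TPM and 6.15% on the TMM scale). DESeq2 called none of the collagen genes and 0.376% of all tested genes higher and 0.504% lower. An unadjusted p below 0.05 was found in 2 of the 30, against 10.3% of all tested genes, and 20 of the 30 had a log2 fold change below 0, against 49.8%. The median over the 30 was -0.20, and the medians were -0.08, -0.34 and -0.14 in the fibrillar, basement membrane and other collagens. The 95% intervals bound how far the abundant genes can have moved. Col1a1 differed by -0.33 (95% interval -0.83 to 0.17, edgeR adjusted p = 0.641), Col3a1 by 0.01 (95% interval -0.60 to 0.61, edgeR adjusted p = 0.995), and Col4a1 by -0.29 (95% interval -0.73 to 0.15, edgeR adjusted p = 0.638) on the log2 scale. Their intervals lay within a fold change of 2 in either direction. Those of Col14a1 (-1.97 to 1.30) and Col9a2 (-2.27 to 0.93) did not.

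The pair with the smallest p, named after their values were seen, were both rare transcripts. Col5a3 differed by -1.43 ± 0.45 (SE, edgeR adjusted p = 0.387) with an unadjusted p of 0.0107, and the groups overlapped in UTOpiA 2 and Empty 2. Col7a1 differed by -0.99 ± 0.32 (SE, edgeR adjusted p = 0.395) with an unadjusted p of 0.0127, and was the only collagen gene whose UTOpiA livers were all below the Empty livers in TPM, as 8.62% of all tested genes were, and also on the TMM scale, as 5.97% were. DESeq2 called Col5a3 lower when Empty 2 was left out, at -1.77 (adjusted p = 0.00974), where it called 0.986% of all tested genes lower. Without UTOpiA 2, DESeq2 called Col5a3 at -1.92 (adjusted p = 0.0154) and Col7a1 at -1.21 (adjusted p = 0.0298), where 2.45% of all tested genes were called lower. UTOpiA 3 was the lowest ACLF liver in 18 of the 30 collagen genes on the TPM scale, as in 56.1% of all tested genes, and in 10 of the 30 on the TMM scale, against 21.2%.

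The genes that make, cut and link collagen were read from lists in the same fit. Of 17 tested genes of chain modification and folding, 6 were called higher and 1 lower in Empty livers (20.7% and 11.1% of all tested genes), with a median log2 fold change of 0.43. The most abundant, P4hb, the β subunit of prolyl 4-hydroxylase that also serves as protein disulfide isomerase, was at 1562, 1236 and 1226 TPM in the Normal livers, 1409, 1131 and 1166 TPM in the Empty livers and 1195, 1052 and 1482 TPM in the UTOpiA livers and was not called (-0.63, edgeR adjusted p = 0.124). Serpinh1 (HSP47), the collagen-specific chaperone, was at 17.6, 24.1 and 17 TPM in the Normal livers, 88.1, 129 and 105 TPM in the Empty livers and 108, 168 and 76.5 TPM in the UTOpiA livers and rose by 1.94. The gene with the largest change on this list, named after its values were seen, was Plod2, the lysyl hydroxylase of collagen telopeptides, at 0.544, 0.512 and 0.379 TPM in the Normal livers, 24.7, 26 and 27.3 TPM in the Empty livers and 13.8, 32.2 and 15.7 TPM in the UTOpiA livers. Sec23a, a coat protein of procollagen export, was the gene called lower (-1.77).

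Of 10 tested proteinases, enhancers and crosslinking enzymes, 8 were called higher and none lower by edgeR in Empty livers (20.7% and 11.1% of all tested genes), with a median of 2.73. Pcolce, the enhancer of procollagen C-proteinase, was at 7.23, 10.5 and 7.84 TPM in the Normal livers, 194, 101 and 84.2 TPM in the Empty livers and 139, 172 and 181 TPM in the UTOpiA livers. Lox, which oxidises lysines for crosslinks, was at 0.13, 0.269 and 0.314 TPM in the Normal livers, 41.1, 13 and 69.3 TPM in the Empty livers and 14.8, 31.1 and 12.5 TPM in the UTOpiA livers. Bmp1, the C-proteinase itself, was at 46, 41.8 and 43.3 TPM in the Normal livers, 41.1, 37.8 and 44.3 TPM in the Empty livers and 59.8, 43.9 and 43.3 TPM in the UTOpiA livers and was not called (-0.61, edgeR adjusted p = 0.0193). In TPM the enhancer and the crosslinking enzyme were thus above the Normal range in every ACLF liver, and the proteinase overlapped it. In the test, which uses the TMM scale, Bmp1 was lower in Empty livers and passed the adjusted p but not the fold threshold. Among 9 tested fibril-binding proteins 6 were called higher in Empty and 7 in UTOpiA livers (20.7% and 18.2% of all tested genes). Fn1 (fibronectin), the most abundant of them, was at 361, 297 and 300.3 TPM in the Normal livers, 1057, 439.9 and 787 TPM in the Empty livers and 606, 1047 and 840.3 TPM in the UTOpiA livers. It was called in UTOpiA (adjusted p = 0.0449) but not in Empty livers (0.74, edgeR adjusted p = 0.123), a difference that was not called (edgeR adjusted p = 0.79). Sparc, a collagen-binding matricellular protein, was at 117, 126 and 105 TPM in the Normal livers, 528, 602 and 747 TPM in the Empty livers and 502, 742 and 349.5 TPM in the UTOpiA livers. Dcn (decorin) spread widely between ACLF livers, at 534, 32.9 and 441 TPM in Empty and 77.7, 277 and 32.7 TPM in UTOpiA livers against 2.35, 2.84 and 2.31 TPM in Normal livers.

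Of 12 tested basement membrane partners of type IV collagen, 11 were called higher in Empty and 11 in UTOpiA livers (20.7% and 18.2% of all tested genes), with medians of 2.38 and 2.06. Nid1 (nidogen), which ties laminin to type IV collagen, was at 7.61, 9.97 and 7.27 TPM in the Normal livers, 49.7, 70.2 and 53.2 TPM in the Empty livers and 71.8, 87.6 and 51.9 TPM in the UTOpiA livers. Of 7 tested collagen receptors 5 were called higher in Empty and 4 in UTOpiA livers, against the same background. Itgb1, the β1 integrin chain, was at 65.9, 73.7 and 71.6 TPM in the Normal livers, 177, 274 and 227 TPM in the Empty livers and 165, 242 and 119 TPM in the UTOpiA livers, and Itga1, the α chain that pairs with it to bind collagen, was at 15.5, 16.2 and 14.3 TPM in the Normal livers, 16.5, 11.1 and 11.6 TPM in the Empty livers and 12.3, 16.5 and 13.8 TPM in the UTOpiA livers and was not called (-0.73, edgeR adjusted p = 0.016). None of these lists had a gene called by edgeR between UTOpiA and Empty livers.

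Markers of several cell types that the tissue could hold differed between ACLF and Normal livers, and those of others were not called. Their counts are to be read against the 20.7% and 18.2% of all tested genes called higher, and the 11.1% and 6.81% called lower, in Empty and UTOpiA livers. Of 6 hepatocyte markers 5 were called lower in Empty and 3 in UTOpiA livers, and their summed TPM was 146633 to 159399 in Normal, 29466 to 53189 in Empty and 34913 to 53924 in UTOpiA livers. Of 5 tested myofibroblast markers 4 were called higher in Empty and 5 in UTOpiA livers, with sums of 16 to 32.6, 382 to 1177 and 305 to 771 TPM, and the sixth, Mfap4, was at 0 in all livers. All 6 cholangiocyte markers were called higher in both ACLF groups, from 14.5 to 24.8 in Normal to 304 to 610.0 in Empty and 128 to 389 TPM in UTOpiA livers. Krt7, the bile duct keratin, was at 0.121, 0.285 and 0.0562 TPM in Normal, 24, 39 and 65.5 TPM in Empty and 18.6, 54.5 and 10.8 TPM in UTOpiA livers. Of 5 tested portal fibroblast markers 4 were called higher in both groups, with sums of 4.63 to 7.57, 25.7 to 48.7 and 19.4 to 55.4 TPM.

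Against the same background of 20.7% and 18.2%, 2 of 5 stellate cell markers, Rgs5 and Des, were called higher in both ACLF groups, with sums of 28 to 29.3, 158 to 247 and 172 to 276 TPM, and Lrat, the enzyme of retinoid storage, was not. Of the 5 endothelial markers found, 1 was called higher and 1 lower in Empty livers. All 3 tested neutrophil markers, 4 of 5 macrophage markers, 3 of 4 T cell markers and 3 of 3 proliferation markers were called higher in both ACLF groups. Of 3 smooth muscle markers none was called in Empty and 1 in UTOpiA livers, and the 1 tested B cell marker was not called. For the smooth muscle and B cell lists edgeR gave these counts, with sums of at most 8.62 and 2.93 TPM in any liver. Of the chondrocyte list only Sox5 was above 0, and it was called lower in Empty livers. The part of any of these cell types in the collagen values was not tested.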

How the data were processed

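Bulk RNA-seq was available for 9 rat livers, 3 each from Normal, Empty and UTOpiA rats, grouped by the sample titles. The deposited tables hold featureCounts read counts per gene, not normalised, and TPM values that the authors computed from them. The sources disagree on how these were made: the labels name NEBNext poly(A) and directional kits, Trimmomatic, HISAT2, featureCounts and build rn6, whereas the methods of the study name an MGIEasy directional kit, Cutadapt, HISAT2, uniquely mapped reads and a mouse build. The gene identifiers are those of rat. The strand setting of the counting was not given in the sources used here, so reads of overlapping antisense genes cannot be told apart, and reads shared by near-identical copies may be lost.

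Counts of all 9 libraries (14241172 to 17321677) were fitted in R 4.3.3 with edgeR 4.0.16 (TMM factors, filterByExpr over the 3 groups, robust quasi-likelihood test, two-sided), with 1 mean per group. A gene was called at a Benjamini-Hochberg adjusted p below 0.05 over the 14089 genes tested and a fold change above 2. Intervals are 95% model intervals, and ratios from summed counts carry exact counting intervals that cover counting error only. The depth limits genes with few counts: a group at 0 was set at a floor of 3 counts over its 3 libraries together. The deposited TPM values were used for levels, shares and ratios, which carry no test. DESeq2 1.42.0, limma 3.58.1 on log2(TPM + 1), other filters and scalings, a replicate block and leaving out each liver were alternatives.

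Genes with a mean of at least 1 TPM over the 9 livers are given with a value for each liver, the partners in chain ratios likewise, and others by counts and ranges. Exceptions are Col5a3 and Col8a2, which are below that level and were also given in TPM for each liver, and genes named as chosen after their values were seen. Of each pathway list the text names genes among the 4 most abundant, apart from 2 named after their values were seen (Plod2 and Sec23a). The collagen genes and all lists were chosen with earlier results of these data known. Promoter sequences are from RefSeq (GRCr8), where 33 of the 42 genes had a window. No pair of livers of 1 group was alike within counting noise. The titles call the livers biological replicates. A cell line detail and 1 gene of a pathway list are not reported here.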

Additional observations from a re-analysis of the deposited data

How the results depend on the processing

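The replicate numbers do not pair the livers: deviations of same-numbered livers correlated at -0.213 to 0.0859, and 2 of 9 livers correlated best with their own number. With the replicate block 20 collagen genes were higher in Empty and 17 in UTOpiA than in Normal livers (19.5% and 16.6% of all tested genes), and 0 were lower in either or differed between UTOpiA and Empty. Requiring at least 10 counts in every library left 17 collagen genes in the test, with 12 higher in Empty and 11 higher and 0 lower in UTOpiA against Normal (14.5%, 12.2% and 6.18% of all tested genes), since it removes genes that are nearly absent from Normal livers. Col20a1, the 1 gene lower in UTOpiA than in Normal livers, was also lost (0 lower) with limma on log2(TPM + 1) with no filter. It did not enter the test with limma on log2(TPM + 1) or log2(TPM + 0.1) after the filter, with only the 6 libraries compared or with at least 10 counts in every library, so these (0 lower) say nothing of its call. Leaving out 1 liver with edgeR gave 0 to 4 lower in Empty against Normal (4 without Empty replicate 2, where 12.3% of all tested genes were lower) and 0 to 1 lower in UTOpiA against Normal. The same with DESeq2, added after seeing the data, gave 1 lower in Empty without Normal replicate 3 (Col20a1) and 4 without Empty replicate 2 (10.9% and 12.6% of all tested genes). It gave 0 lower in UTOpiA against Normal without Normal replicates 1 or 2 or UTOpiA replicate 1. It gave 1 lower in UTOpiA against Empty without Empty replicate 2 and 2 without UTOpiA replicate 2, where 0.986% and 2.45% of all tested genes were lower. Counts of higher genes stayed between 18 and 21 for Empty and between 17 and 19 for UTOpiA with edgeR when 1 liver was left out. With TMM CPM, which ignores gene length, in place of TPM, the basement membrane and other shares in Normal livers were 11.8% and 61.2%. Mean chain ratios in Normal, Empty and UTOpiA livers became 0.839, 2.12 and 1.94 for Col1a1/Col1a2, 0.711, 1.42 and 1.25 for Col5a2/Col5a1, 1.47, 2.06 and 2.2 for Col4a1/Col4a2, 1.38, 1.1 and 1.02 for Col6a1/Col6a2, and 0.823, 1.03 and 1.27 for Col6a3/Col6a2, and Col3a1/Col1a1 in UTOpiA livers 6.74. These move by a factor fixed for each pair, so the order of groups is the same. No value of a called gene changed sign under any alternative. Of 621 single-gene values in Empty against Normal 586 stayed on their side of the threshold, of 620 in UTOpiA against Normal 588, and of 610 in UTOpiA against Empty 607. The depth limits the genes with few counts in Normal livers. Except where a sentence gives it, the cause was not tested.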
